A study of Homo sapiens with 14 samples.

Results

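The aryl hydrocarbon receptor (AHR) is the cell's sensor for the polycyclic aromatic hydrocarbons of tobacco smoke, and 9 genes of its response were followed by symbol, out of 62749 genes with counts. They are the receptor gene AHR, its partner ARNT, the repressor AHRR, the feedback gene TIPARP, the cytochrome P450 genes CYP1A1, CYP1A2 and CYP1B1, the aldehyde dehydrogenase gene ALDH3A1, and LMCD1, which codes for a LIM-domain protein known to restrain GATA factors. RNA had been sequenced from xenografts in mice of the human bladder cancer line UMUC3. The cells carried either a FASN knockdown or a control short hairpin RNA, and were engrafted after regular medium or after prior exposure to 10% cigarette smoke medium (CSM). The 4 groups were FASN knockdown after CSM (n = 4), control after CSM (n = 4), FASN knockdown from regular medium (n = 3) and control from regular medium (n = 3). FASN codes for fatty acid synthase, which makes palmitate. The labels give neither the method of the knockdown, nor the preparation of the CSM, the length of exposure, or the time to collection, and do not tie the libraries to single animals. The p-values below therefore measure a spread among libraries that could be technical.

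AHR waits in the cytoplasm bound to chaperones, moves to the nucleus when a ligand binds, and pairs there with ARNT on short DNA elements near its target genes. CYP1A1, CYP1A2 and CYP1B1 are its best-known targets and oxidise the hydrocarbons themselves, while AHRR competes for ARNT and TIPARP, a mono-ADP-ribosyltransferase, marks the receptor for destruction. AHR and the CYP1 enzymes are studied in the bladder because its lining is exposed to smoke products carried in urine.

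The summed counts were 15810287 to 45209466 per library. RN7SL1 and RN7SL2, the 7SL RNA, took 2.64% to 25.6% of them. In regular medium the FASN level of the knockdown libraries was 22.1% to 29.1% of the control mean. In replicates 1 to 4 of the FASN knockdown after CSM it was 50.9%, 38.5%, 69.8% and 111% of the mean of control after CSM. Replicate 4 therefore went against its label, and libraries of that group are called knockdown-labelled below. In the edgeR test used below, the log2 fold change of FASN for the knockdown was −0.57 after CSM (adjusted p = 0.288). It was −1.94 in regular medium (adjusted p = 0.0245). For CSM in knockdown cells it was 1.31 (adjusted p = 0.5675). Effects of CSM in knockdown cells, and their difference from those in control cells, therefore cannot be told apart from a difference in FASN level. In CPM, counts scaled to the library's total, VIM averaged 1999 CPM, KRT8 92.6 CPM and KRT18 146 CPM over the 14 libraries, and 9 of the 15 urothelial markers had reads in every library. Among these were GATA3 at 1.11 CPM, PPARG at 3.68 CPM and UPK1B at 2.35 CPM, while KRT20 and UPK3A had no read in any library. Mouse transcripts were not quantified, and in whole tissue fewer cells of a type cannot be told apart from less RNA per cell.

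The 9 genes spanned a wide range of levels, and CYP1A1, CYP1B1 and ALDH3A1 lay near the limit of detection. On the TPM scale, which corrects each transcript for its length and each library for its total, the means over the 14 libraries were 12.3 for ARNT, 2.51 for LMCD1, 2.17 for TIPARP, 0.592 for AHRR and 0.484 for AHR. They were 0.172 for CYP1A2, 0.0928 for ALDH3A1, 0.0282 for CYP1A1 and 0.0189 for CYP1B1. Each gene's range over libraries overlapped that of its neighbour in this order, including ARNT (4.83 to 19.4 TPM) and LMCD1 (1.29 to 5.39 TPM). ARNT stood above 72.7% of the tested genes on this scale and AHR above 23.0%. A filter on low counts kept 6 of the 9 genes among the 22560 genes tested, and left out CYP1A1 (35 reads in all), CYP1B1 (27 reads) and ALDH3A1 (91 reads).

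**Figure D1:**
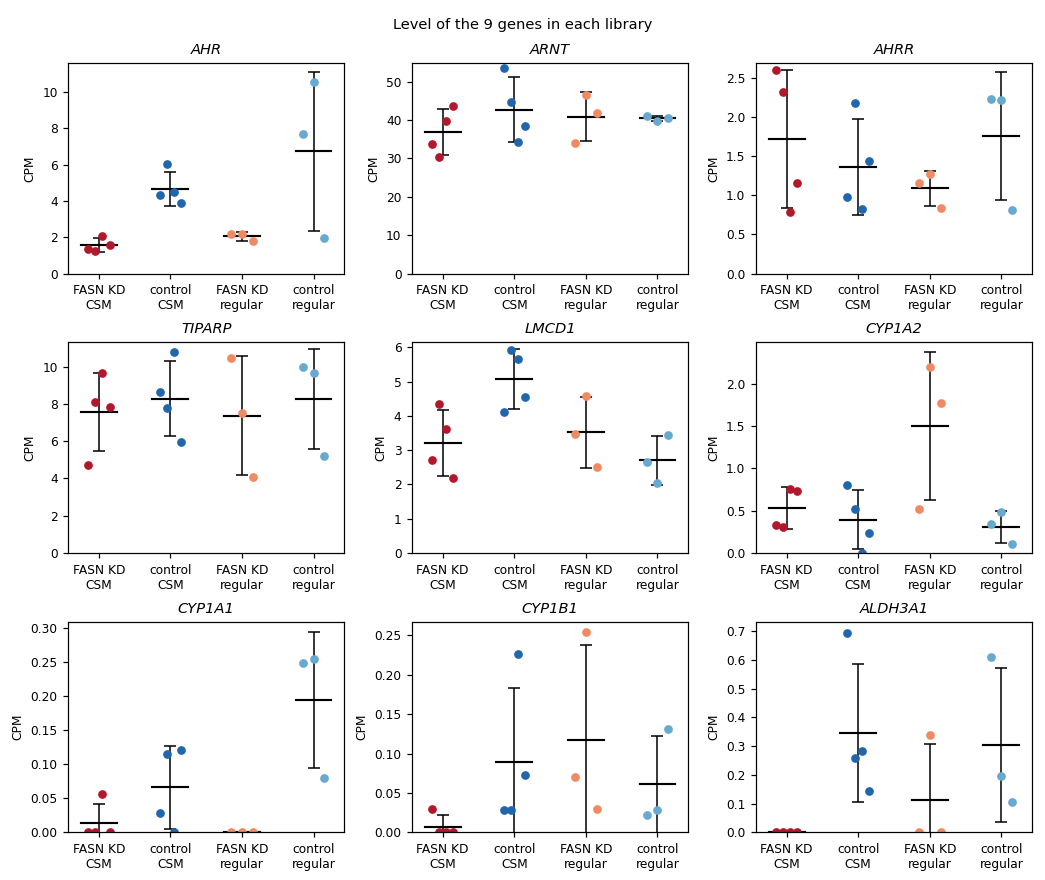
Level of each of the 9 genes in CPM (linear axes from 0) for every library, in the groups FASN knockdown after CSM, control after CSM, FASN knockdown and control. Points are libraries, horizontal lines are group means and error bars are 1 SD, cut at 0. AHR was 1.27 to 2.08 CPM in the 4 knockdown-labelled libraries after CSM, below the 3.87 to 6.02 CPM of control after CSM, and 1 control library from regular medium stood at 1.95 CPM.

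Exposure of the cells to CSM before engraftment was not followed by a called change of any of these genes in the xenografts. In edgeR's quasi-likelihood test at an adjusted p below 0.05, 0 of the 6 tested members were called for CSM against regular medium in FASN knockdown cells (background 0.0% of all tested genes), in control cells (0.0%) or in the mean of both kinds of cell (0.0%). The interaction, the CSM effect in knockdown cells minus that in control cells, likewise had 0 members called at a background of 0.0%. At an unadjusted p below 0.05 there were 1504 genes (6.67%) in knockdown cells, 316 (1.4%) in control cells, 703 (3.12%) in the mean and 1178 (5.22%) in the interaction. Among the members, these counts held none in knockdown cells, LMCD1 in control cells, none in the mean and LMCD1 in the interaction. DESeq2 called 52, 6 and 3 genes for CSM in knockdown cells, in control cells and in the mean, none of them a member. The interval of the CSM effect on TIPARP, a gene that activated AHR raises, was −0.72 to 0.80 on the log2 scale in knockdown cells and −0.76 to 0.76 in control cells.

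On the count scale FASN knockdown libraries held less AHR RNA than control libraries, and the call of that difference depended on the comparison. In the planned comparisons of FASN knockdown against control, 0 of the 6 tested members were called after CSM (background 1.17% of all tested genes) and 0 in regular medium (background 0.204%). AHR alone had an unadjusted p below 0.05 after CSM, as did 18.5% of all tested genes, and AHR and CYP1A2 did in regular medium, as did 9.08%. Over the mean of both media, a comparison added after the AHR values of each medium had been seen, AHR was the 1 member called, lower, where 1.98% of the tested genes were called lower, 3.52% were called in all and 19.6% had an unadjusted p below 0.05. Since AHR prompted that comparison, the call is not independent support.

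**Figure D2:**
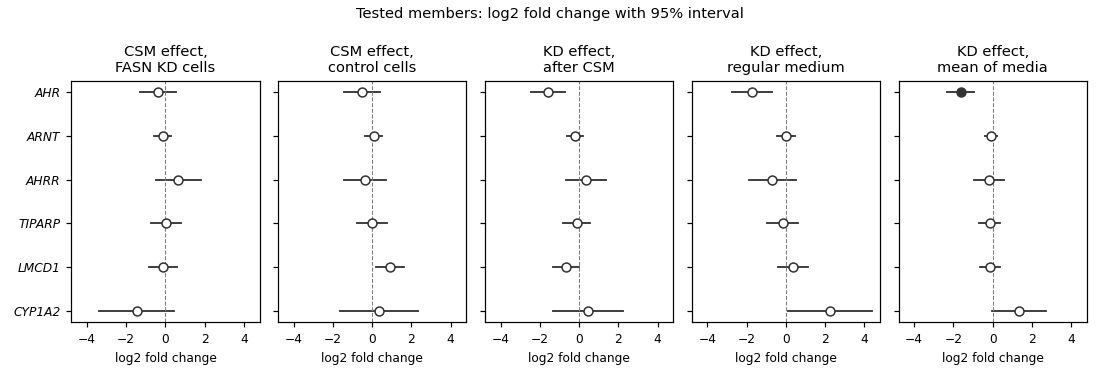
log2 fold changes of the 6 tested genes (points) with 95% intervals (lines) in 5 comparisons, each with its group on top first: CSM over regular medium in FASN knockdown and control cells, and FASN knockdown over control after CSM, in regular medium and over the mean of both media. Filled points are called at an adjusted p below 0.05; the single filled point is AHR at −1.64 over the mean of both media.

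AHR codes for the receptor itself (chr7:17298652-17346147, plus strand, GRCh38). AHR had 46, 37, 74 and 78 reads in knockdown-labelled libraries after CSM, against 150, 209, 158 and 161 in control after CSM. It had 63, 26 and 61 reads in FASN knockdown libraries, against 341, 374 and 74 in control libraries from regular medium. After CSM the knockdown-labelled libraries all lay below the control libraries, where 16.2% of all tested genes separated in either direction, while in regular medium control replicate 3 lay among the knockdown libraries. In CPM, AHR averaged 1.57 ± 0.362 CPM in knockdown-labelled libraries after CSM and 4.68 ± 0.932 CPM in control after CSM (SD, n = 4 each). It averaged 2.06 ± 0.248 CPM in FASN knockdown and 6.73 ± 4.38 CPM in control (SD, n = 3 each). One annotated transcript, AHR-201, took 99.3% of the AHR reads.

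On the count scale AHR was 2.97-fold lower in knockdown-labelled libraries after CSM than in control after CSM (log2 fold change −1.57, SE 0.41, 95% interval −2.44 to −0.70, edgeR adjusted p = 0.0735). Without replicate 4, the library at odds with its label, the value was −1.56 (adjusted p = 0.130). In regular medium the log2 fold change was −1.71 (SE 0.48, 95% interval −2.72 to −0.69, adjusted p = 0.233). Control replicate 3 set that call: without it the log2 fold change in regular medium was −2.16 (adjusted p = 0.0466), and after CSM it was −1.55 (adjusted p = 0.0245), both called. Without FASN knockdown replicate 3 the adjusted p after CSM was 0.0468. DESeq2 called AHR lower in both media, at adjusted p = 0.00756 after CSM and 0.0374 in regular medium. Over the mean of both media the log2 fold change was −1.64 (SE 0.32, 95% interval −2.31 to −0.97, adjusted p = 0.0109), and it stayed called with each of the 14 libraries left out in turn (adjusted p 0.00099 to 0.0498). The interval for the interaction, −1.17 to 1.45, holds 0, so no difference in AHR between the knockdown effects of the 2 media was detected.

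The size of the AHR difference depended on the scale. In TPM, AHR averaged 0.464 ± 0.256 in knockdown-labelled libraries after CSM and 0.522 ± 0.227 in control after CSM (SD, n = 4 each), and the groups overlapped. In regular medium it averaged 0.204 ± 0.123 TPM in FASN knockdown and 0.738 ± 0.477 TPM in control (SD, n = 3 each). The short transcripts AHR-203 (388 bases) and AHR-204 (518 bases) held 4.02 and 3.0 reads, each in 1 knockdown-labelled library after CSM. Over the 14 libraries these transcripts averaged 0.0308 and 0.0242 TPM, against 0.427 TPM for AHR-201. No other group had reads on them, so their weight in the TPM of that group was larger than these means. The 1 added before the log2 in limma exceeds the AHR mean of 0.484 TPM, so differences in AHR are compressed on that scale. In limma on log2(TPM + 1), the knockdown difference in AHR was −0.062 after CSM, where the median of all tested genes moved by 0.39, and −0.49 in regular medium, where that median moved by −0.14. With the effective lengths as an offset in edgeR it was −0.92 after CSM (adjusted p = 0.327) and −1.73 in regular medium (adjusted p = 0.385). Over the mean of both media the call of AHR ended under the length offset (log2 fold change −1.33, adjusted p = 0.0622) and in limma on log2(TPM + 1) (−0.28, adjusted p = 0.525). The part of these scale shifts and of the short transcripts in the result was not tested.

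Some lists of other cell types' markers also differed between these groups. The 8 host fibroblast markers summed to 12.4 to 31.6 CPM in knockdown-labelled libraries after CSM and 14.5 to 29.9 CPM in control after CSM, and to 29.99 to 37.7 CPM in FASN knockdown and 15.9 to 17.1 CPM in control. The 7 myeloid and leukocyte markers summed to 19.6 to 36.4 CPM in knockdown-labelled libraries and 21.6 to 41.0 CPM in control libraries after CSM, and to 35.8 to 41.7 CPM in FASN knockdown and 25.3 to 27.5 CPM in control from regular medium. The sums of both lists were thus higher in knockdown than in control libraries from regular medium without overlap, and overlapped after CSM. In regular medium 2 of the 8 fibroblast markers averaged over 1 CPM in FASN knockdown and 3 in control, so not every marker rose with the sum. In regular medium 11.8% of single tested genes separated in either direction. The endothelial, adipocyte and hepatocyte lists overlapped in each medium. Of the fibroblast list 3 of 8 markers had reads in all 14 libraries, led by ACTA2 with a mean of 17.9 CPM, while LUM had none in 9. Of the myeloid and leukocyte list 4 of 7 did, led by ADGRE1 with a mean of 19.6 CPM, while CD3E had none in 13. The 15 urothelial markers summed to 187 to 216 CPM in knockdown-labelled libraries after CSM and 273 to 331 CPM in control after CSM, and overlapped in regular medium (200.3 to 307.6 CPM in FASN knockdown and 241 to 291 CPM in control). After CSM 16.2% of single tested genes separated in either direction. KRT8 and KRT18 led this list, with means of 92.6 and 146 CPM. As mouse transcripts were not quantified, reads on the host lists cannot be assigned to host cells. The part of these marker lists in the AHR difference was not tested.

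The windows around the transcription starts of AHR, CYP1A1 and LMCD1 are shown from RefSeq (GRCh38.p14). AHR is the receptor gene, CYP1A1 its classical target, and LMCD1 the member whose control libraries separated by CSM in CPM. Each window has 250 bases before the start and 50 after it, on its own strand, 5′ to 3′. Capitals mark GCGTG, the core of the element bound by AHR and ARNT, searched on both strands (CACGC on the other).
AHR: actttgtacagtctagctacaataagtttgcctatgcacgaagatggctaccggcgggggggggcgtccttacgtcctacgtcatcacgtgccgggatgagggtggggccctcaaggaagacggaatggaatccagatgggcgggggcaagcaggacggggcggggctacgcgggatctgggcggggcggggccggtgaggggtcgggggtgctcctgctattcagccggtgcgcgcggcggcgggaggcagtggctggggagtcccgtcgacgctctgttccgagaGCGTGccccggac
CYP1A1: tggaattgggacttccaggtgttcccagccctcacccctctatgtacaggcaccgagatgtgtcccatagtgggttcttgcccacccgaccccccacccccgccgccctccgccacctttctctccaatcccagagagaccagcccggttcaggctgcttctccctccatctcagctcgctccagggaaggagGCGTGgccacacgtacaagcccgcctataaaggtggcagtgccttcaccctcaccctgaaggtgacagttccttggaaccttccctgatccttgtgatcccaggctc
LMCD1: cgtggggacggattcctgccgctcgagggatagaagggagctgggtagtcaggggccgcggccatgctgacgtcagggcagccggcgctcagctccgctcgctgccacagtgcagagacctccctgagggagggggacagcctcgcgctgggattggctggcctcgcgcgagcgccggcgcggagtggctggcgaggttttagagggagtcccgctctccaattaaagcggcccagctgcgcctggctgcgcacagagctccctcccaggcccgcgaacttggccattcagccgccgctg
They lie at chr7:17298402-17298701 (plus strand), chr15:74725479-74725778 (minus strand) and chr3:8501573-8501872 (plus strand). The AHR and CYP1A1 windows each hold the core once and the LMCD1 window does not, nor does that of CYP1A2, which is not printed. RefSeq windows were matched for 7 of the 9 genes (10 windows), 5 of these windows hold the core, and 36.5% of all 35116 windows do. Among the members, AHR, AHRR, TIPARP and CYP1A1 hold it in at least 1 window, against 40.6% of the 27305 genes with a window.

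ARNT, the shared partner of AHR and of the hypoxia factors, kept a similar level in all groups (chr1:150809713-150876599, minus strand). ARNT averaged 36.9 ± 6.02 CPM in knockdown-labelled libraries after CSM, 42.7 ± 8.48 CPM in control after CSM, 40.9 ± 6.30 CPM in FASN knockdown and 40.4 ± 0.659 CPM in control (SD). All groups overlapped. Its log2 fold changes were −0.15 for CSM in knockdown cells (95% interval −0.57 to 0.28), 0.08 in control cells (−0.35 to 0.51), −0.21 for the knockdown after CSM (−0.61 to 0.18) and 0.02 in regular medium (−0.44 to 0.47). With 550 to 2154 reads per library, ARNT is the most deeply counted member, and these intervals are the narrowest of the 6.

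AHRR, which competes with AHR for ARNT, had few reads, and part of them could not be separated from a neighbouring transcript. AHRR (chr5:321714-438285, plus strand) had 88, 68, 28 and 57 reads in knockdown-labelled libraries after CSM, against 34, 76, 29 and 60 in control after CSM. It had 33, 15 and 29 reads in FASN knockdown, against 99, 79 and 31 in control. The groups overlapped in every pair. PDCD6-AHRR, a read-through gene that spans AHRR and its neighbour PDCD6, had 0, 0, 41 and 79 reads in knockdown-labelled libraries after CSM and 30, 32, 5 and 60 in control after CSM. It had 16, 0 and 70 reads in FASN knockdown and 0, 0 and 35 in control. The libraries with many AHRR reads in regular medium, control replicates 1 and 2, were at 0 for the read-through gene, and the estimated split between the pair is uncertain.

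**Figure D3:**
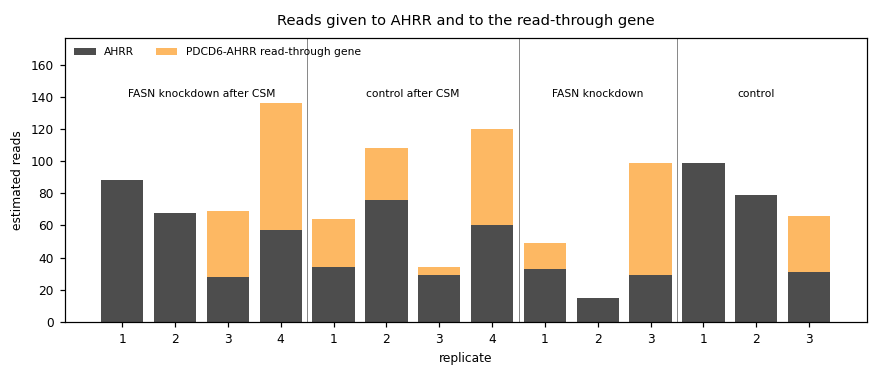
Estimated reads (stacked bars, linear axis from 0) given to AHRR and to the read-through gene PDCD6-AHRR in each library, by group. Of the 14 libraries, 5 had no read on the read-through gene: knockdown-labelled replicates 1 and 2 after CSM, FASN knockdown replicate 2 and control replicates 1 and 2.

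For AHRR the log2 fold change of CSM was 0.66 in knockdown cells (SE 0.54, adjusted p = 0.857) and −0.37 in control cells (SE 0.51, adjusted p = 0.9997). With the read-through counts added to AHRR, the value in control cells turned to 0.093 (adjusted p = 0.9997). The knockdown values of AHRR were 0.33 after CSM (SE 0.48, adjusted p = 0.728) and −0.70 in regular medium (SE 0.57, adjusted p = 0.801). Neither direction could be told from the spread between libraries.

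TIPARP codes for a mono-ADP-ribosyltransferase that AHR induces and that limits AHR in turn (chr3:156674590-156706770, plus strand). TIPARP had 4.70, 8.10, 9.65 and 7.83 CPM in knockdown-labelled libraries after CSM, against 8.64, 7.78, 10.8 and 5.94 CPM in control after CSM. It had 10.5, 7.54 and 4.10 CPM in FASN knockdown, against 9.99, 9.66 and 5.18 CPM in control. The groups overlapped in every pair, and the libraries of 1 group spread more than the groups did. Its log2 fold changes were between −0.17 and 0.04 in the 4 pairs of groups, the largest SE was 0.38, and the lowest adjusted p was 0.856. The use of strand is not stated, so any reads that TIPARP shares with its antisense gene TIPARP-AS1 cannot be told apart. TIPARP-AS1 held 25 reads in knockdown-labelled libraries after CSM, 57 in control after CSM, 43 in FASN knockdown and 74 in control.

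LMCD1 was the 1 tested member whose libraries did not overlap in CPM between CSM and regular medium (chr3:8501823-8574668, plus strand). LMCD1 had 2.72, 4.34, 3.62 and 2.18 CPM in knockdown-labelled libraries after CSM, against 4.11, 5.93, 5.67 and 4.55 CPM in control after CSM. It had 3.47, 4.58 and 2.50 CPM in FASN knockdown, against 2.65, 2.03 and 3.45 CPM in control. In control cells all 4 libraries after CSM lay above all 3 from regular medium in CPM, which 4.07% of all tested genes also did in either direction. In knockdown cells the groups overlapped, as they did for every tested member, where 5.92% of all tested genes separated. In TPM the LMCD1 groups of control cells overlapped, with 1.88 TPM in replicate 3 after CSM and 1.97 TPM in replicate 3 from regular medium.

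The log2 fold change of LMCD1 for CSM was −0.12 in knockdown cells (SE 0.34, 95% interval −0.84 to 0.60) and 0.90 in control cells (SE 0.34, 95% interval 0.18 to 1.63). The edgeR adjusted p of LMCD1 was 0.976 in knockdown cells and 0.9997 in control cells, so neither was called; the unadjusted p in control cells was 0.0182. The interaction was −1.02 (SE 0.48, 95% interval −2.04 to −0.01, unadjusted p = 0.0481, adjusted p = 0.942), and −0.86 (unadjusted p = 0.0929) without knockdown-labelled replicate 4 after CSM. The knockdown difference was −0.66 after CSM (adjusted p = 0.272) and 0.37 in regular medium (adjusted p = 0.863). Without knockdown-labelled replicate 4 after CSM the CSM value in knockdown cells was 0.043. LMCD1-AS1, the neighbour that starts close to LMCD1 on the other strand without overlapping it in RefSeq, held 77 reads in knockdown-labelled libraries after CSM, 90 in control after CSM, 12 in FASN knockdown and 44 in control.

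The CYP1 enzymes, the classical readout of AHR activity, had low RNA levels in all groups, after CSM included. CYP1A1 and CYP1B1 had at most 11 and 8 reads in a library, and CYP1A2 had at most 61. CYP1A1 (chr15:74719542-74725528, minus strand) had 0, 0, 2 and 0 reads in knockdown-labelled libraries after CSM, against 1, 4, 0 and 5 in control after CSM. CYP1A1 had 0, 0 and 0 reads in FASN knockdown, against 11, 9 and 3 in control. Reads were fewer in knockdown than in control libraries of each medium, with overlap after CSM and none in regular medium, where 11.8% of the tested genes, to which CYP1A1 does not belong, also separated. Taking 3 counts over the group as the floor (0.0402 CPM), CYP1A1 was at least 4.86-fold lower in FASN knockdown than the pooled level of control from regular medium (0.195 CPM). The spread of those control libraries, 0.0789 to 0.254 CPM, is not in that bound. An exact two-sided permutation test within medium gave p = 0.0129 for the mean knockdown difference of −0.123 CPM, and p = 0.0171 without knockdown-labelled replicate 4 after CSM. For CSM against regular medium, permuted within kind of cell, CYP1A1 differed by −0.0568 CPM (exact p = 0.159). There were 6 such tests on the members outside the fit, with no adjustment, and the smallest p the arrangements allow is 0.000714 within medium and 0.000816 within kind of cell.

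CYP1A2, next to CYP1A1 on chromosome 15, had more reads than CYP1A1 (chr15:74748845-74756607, plus strand). CYP1A2 had 11, 9, 27 and 36 reads in knockdown-labelled libraries after CSM, against 28, 18, 0 and 10 in control after CSM. It had 15, 26 and 61 reads in FASN knockdown, against 15, 17 and 4 in control. In CPM, the 3 FASN knockdown libraries (0.526, 2.20 and 1.78 CPM) lay above the 3 control libraries of regular medium (0.339, 0.479 and 0.105 CPM), as 11.8% of tested genes separated in either direction. In TPM these groups overlapped, with 0.0885 TPM in FASN knockdown replicate 1 and 0.108 TPM in control replicate 2. On the count scale the log2 fold change was 2.26 (SE 1.01, 95% interval 0.12 to 4.41, unadjusted p = 0.0402, adjusted p = 0.523), opposite in sign to CYP1A1. After CSM the knockdown difference was 0.44 (SE 0.85, adjusted p = 0.799) with overlap. For CSM the log2 fold change was −1.47 in knockdown cells (SE 0.90, adjusted p = 0.807) and 0.34 in control cells (SE 0.93, adjusted p = 0.9997).

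CYP1B1, which oxidises hydrocarbons and oestrogens (chr2:38067509-38076151, minus strand), had 1, 0, 0 and 0 reads in knockdown-labelled libraries after CSM, against 1, 1, 8 and 3 in control after CSM. It had 2, 3 and 1 reads in FASN knockdown, against 1, 1 and 5 in control. No more than 8 reads fell on CYP1B1 in any library, and the exact test gave p = 0.79 for the knockdown and p = 0.427 for CSM. CYP1B1-AS1, a gene on the opposite strand that does not overlap CYP1B1 in RefSeq, was better covered, with 553, 261, 204 and 216 reads in knockdown-labelled libraries after CSM against 108, 102, 35 and 346 in control after CSM. It had 131, 40 and 139 reads in FASN knockdown against 137, 157 and 279 in control. The CYP1B1-AS1 counts overlapped between groups in each medium.

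ALDH3A1, an aldehyde dehydrogenase that AHR ligands raise (chr17:19737984-19748298, minus strand), had 0, 0, 0 and 0 reads in knockdown-labelled libraries after CSM, against 24, 9, 10 and 6 in control after CSM. It had 0, 4 and 0 reads in FASN knockdown, against 27, 7 and 4 in control. All 4 control libraries after CSM had reads and none of those labelled knockdown did, a separation that 16.2% of the tested genes, to which ALDH3A1 does not belong, also showed. Taking 3 counts over the group as the floor (0.0203 CPM), ALDH3A1 was at least 16.5-fold lower in knockdown-labelled libraries after CSM than the pooled level of control after CSM (0.335 CPM). The spread of those control libraries, 0.144 to 0.694 CPM, is not in that bound. The exact permutation test within medium gave p = 0.03 for a mean knockdown difference of −0.268 CPM, and p = 0.0414 without knockdown-labelled replicate 4 after CSM. With no filter on low counts, edgeR called ALDH3A1 after CSM (adjusted p = 0.0074, where 2.71% of 43484 genes were called) and not in regular medium (adjusted p = 0.766, where 0.895% were called). For CSM, the exact test gave p = 0.751, and ALDH3A1 summed to 49 reads in control after CSM and 38 in control.

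The genes around the receptor were read from lists on its complex, targets, ligands and relatives, chosen with earlier results of these data in view. Of all tested genes, 1.17% were called for the knockdown after CSM, 0.204% in regular medium and 3.52% over both media. None of the 12 tested genes of the AHR complex and its partners was called in any comparison, and over the mean of both kinds of cell all 12 had a log2 fold change of CSM below 0 (median −0.16, against 0.00 for all tested genes, of which 50.4% were positive). That direction flipped on log2(TPM + 1), where 11 of the 12 were above 0 (median 0.28) as the median of all genes moved by 0.28, and 4 were above 0 with the 7SL share as a covariate. The members of that list with the smallest p were SRC, a kinase released from the complex, at −0.32 (SE 0.23, adjusted p = 0.9999), and NCOA3, a coactivator, at −0.18 (SE 0.15, adjusted p = 0.9999). Of 18 other AHR target genes 10 were tested, and their median log2 fold change for the knockdown was −0.30 after CSM and −0.57 in regular medium, with none called in either. The value after CSM flipped to 0.31 on log2(TPM + 1), beside a shift of 0.39 in the median of all genes. NFE2L2, the oxidative stress factor NRF2, was called lower in the comparison over both media (log2 fold change −0.49, SE 0.12, adjusted p = 0.0411), a call that ended with any 1 library left out other than knockdown-labelled replicate 4 after CSM and FASN knockdown replicate 1 (adjusted p up to 0.112). It averaged 52.8 ± 3.75 CPM in knockdown-labelled libraries after CSM against 65.5 ± 5.59 CPM in control after CSM, and 54.4 ± 8.40 CPM in FASN knockdown against 86.7 ± 11.8 CPM in control.

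Among 5 tested enzymes of tryptophan breakdown, a source of AHR ligands, IDO1, which opens tryptophan towards kynurenine, was called higher over both media (log2 fold change 1.34, SE 0.34, adjusted p = 0.0428). That call ended with any 1 library left out other than replicate 1 of the knockdown-labelled libraries after CSM, of control after CSM or of FASN knockdown (adjusted p up to 0.124). IDO1 averaged 3.27 ± 1.16 CPM in knockdown-labelled libraries after CSM against 1.44 ± 0.639 CPM in control after CSM, and 5.25 ± 3.04 CPM in FASN knockdown against 1.85 ± 0.302 CPM in control. In single media none of the 5 was called. Of the 10 other bHLH-PAS factors tested, the protein family of AHR and ARNT, none was called, with SIM2 at −0.54 (SE 0.34) and NPAS1 at −0.47 (SE 0.34) for CSM over both kinds of cell (adjusted p = 0.9999 for each).

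Of the 13 other PARP genes, relatives of TIPARP, PARP15 was called higher in knockdown-labelled libraries than in control libraries after CSM (log2 fold change 1.09, SE 0.18, adjusted p = 0.0104). PARP15 averaged 48.2 ± 7.32 CPM in knockdown-labelled libraries after CSM and 22.7 ± 3.32 CPM in control after CSM. These groups did not overlap (41.4 to 58.2 CPM against 18.7 to 26.4 CPM), where 16.2% of all tested genes separated in either direction. The call was kept with each of the 14 libraries left out in turn, and not in limma on log2(TPM + 1) (adjusted p = 0.124). In regular medium it averaged 34.04 ± 5.81 CPM in FASN knockdown and 27.0 ± 3.46 CPM in control (log2 fold change 0.34, adjusted p = 0.707). None of the 18 other tested P450 genes of families 1 to 4 was called, and 14 of them were positive for the knockdown in regular medium (median 0.86), where 51.4% of all tested genes were. Their smallest p values for CSM over both kinds of cell were those of CYP2C19 (−1.21, SE 0.56) and CYP4F11 (−0.36, SE 0.19), each at adjusted p = 0.9999.

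Of the 15 other aldehyde dehydrogenases tested, 2 moved in opposite directions. ALDH1A3, which makes retinoic acid, had 1 read over the 4 knockdown-labelled libraries after CSM against 77 in control after CSM (adjusted p = 0.0402), and 0 reads in FASN knockdown against 105 in control (adjusted p = 0.0896). The call after CSM ended with any 1 library left out other than control replicate 1 after CSM and the 3 FASN knockdown libraries of regular medium (adjusted p up to 0.119). ALDH1A1, which makes retinoic acid as well, averaged 89.6 ± 26.6 CPM in knockdown-labelled libraries after CSM against 23.4 ± 17.7 CPM in control after CSM, and 134.9 ± 75.5 CPM in FASN knockdown against 26.8 ± 12.4 CPM in control. It was called higher over the mean of both media (log2 fold change 2.13, SE 0.42, adjusted p = 0.0124), though not in either medium alone (adjusted p = 0.0880 after CSM and 0.219 in regular medium).

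**Figure D4:**
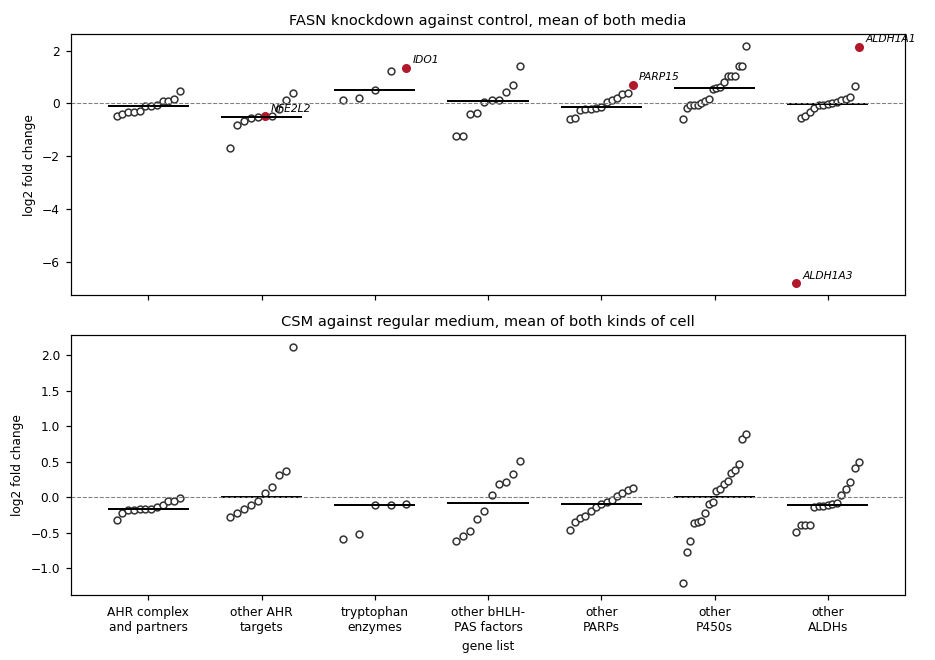
log2 fold changes of the tested genes in 7 lists around AHR for FASN knockdown over control, mean of both media (upper panel), and for CSM over regular medium, mean of both kinds of cell (lower panel). Points are genes, lines are list medians, and filled points with names are called at an adjusted p below 0.05; the value of ALDH1A3, which had 1 read in 7 knockdown libraries, rests on the fit and is no measured fold. In the lower panel no gene is called and all 12 genes of the AHR complex lie below 0 on this count scale, a direction that flipped on log2(TPM + 1).

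Across the 14 libraries, the protein-coding genes whose log2 CPM ran most like that of AHR were PPP2R2C (Pearson r = 0.903), ALDOC (0.882) and MMP17 (0.881), out of 11859 compared. Those most like TIPARP were MASTL (0.887), PAQR5 (0.886) and GEM (0.884). Those most like LMCD1 were CAMK2G (0.864), CALB2 (0.852) and SPC24 (0.824). These are descriptions over libraries that share 4 groups and differ in depth.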

How the data were processed

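The RNA was total RNA from frozen xenograft tissue, per the labels' protocols. The submitters' processing notes list GRCh38, cutadapt, FastQC and Salmon; versions, annotation release and strand settings are not stated there. For each library the authors deposited expected counts (reads as Salmon estimates them, not normalised), TPM, length and effective length of 252048 human transcripts, per the file headers.

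Here they were added up by gene and rounded to whole numbers. All 14 libraries entered 1 fit of edgeR 4.0.16 (R 4.3.3; quasi-likelihood test, TMM, filterByExpr with a minimum count of 10 and total of 15), with 1 coefficient per group and 10 residual degrees of freedom. Adjusted p-values are Benjamini-Hochberg values over 22560 genes, called below 0.05. CPM uses TMM-scaled totals; 95% intervals come from the fit. Members that failed the filter were compared by exact permutation tests of CPM. The code was tested on simulated data. Replicate numbers did not pair libraries: over 18 same-numbered pairs the correlation of deviations was −0.507 to 0.394, above 0.1 in 7.

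Genes named beside the members were up to 3 called genes per list, or else the 2 with the smallest p for CSM over both kinds of cell, and the 3 genes most correlated with AHR, TIPARP and LMCD1. Members and lists were chosen with earlier results of these data known. Alternatives were DESeq2 1.42.0, limma 3.58.1 on log2(TPM + 1), other factors, filters, samples and covariates.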

Additional observations from a re-analysis of the deposited data

Results flagged for a closer look

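Among 18 groups of 4 libraries, 2 had a library apart from the rest. In both the other 3 libraries were at 0, so that any read sets a library apart and the usual chance rate of about 1 in 20 groups does not apply. CYP1A1 stood at 0.0561 CPM (2 reads) in knockdown-labelled replicate 3 after CSM, while the other 3 libraries of that group had none. CYP1B1 stood at 0.0296 CPM (1 read) in replicate 1 of the same group, with none in the other 3. Both values rest on 1 or 2 reads.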

How the results depend on the processing

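No member was called in any of the 6 planned comparisons with the settings of the report, and for CSM and the interaction no alternative called one. After CSM, FASN knockdown against control called 2 members with no filter on low counts (AHR and ALDH3A1), 1 when only the groups of the comparison were fitted (AHR), 1 in DESeq2 (AHR), and 0 to 2 with a library left out. In regular medium it called 1 member in DESeq2 (AHR) and 0 to 1 with a library left out. Over the mean of both media, the 1 call became 2 with no filter and 2 without the pair of libraries with over 15% 7SL (ALDH3A1 was added), 1 to 2 with a library left out, and 0 under the length offset and in limma on log2(TPM + 1). The numbers did not pair the libraries, and with the replicate block 0 members were called there (AHR −1.56, adjusted p = 0.0540), and PARP15 was not called after CSM (adjusted p = 0.0652). With the replicate block 254 of all genes were called over both media (795 without it), 59 after CSM (264) and 17 in regular medium (46).

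Some log2 fold changes, none of them called, turned in direction, and the cause was not tested. Leaving out the high-7SL pair and adding read-through reads were chosen after seeing the data. TIPARP for CSM in control cells (0.001) was −0.006 with RLE factors, −0.058 with upper-quartile factors, −0.012 with no filter, −0.021 at 2 CPM in 3 libraries, −0.028 in protein-coding genes, −0.009 for totals without 7SL, −0.004 in the 2 groups alone, −0.006 in DESeq2 and −0.15 without the high-7SL pair. TIPARP for the knockdown after CSM was 0.029 with upper-quartile factors, 0.009 in protein-coding genes, 0.048 with 7SL as covariate, 0.42 on log2(TPM + 1) and 0.030 without the high-7SL pair; its interaction was −0.030 under the length offset, and its CSM value over both cells −0.048 without that pair. ARNT for CSM in control cells was −0.034 under the length offset and −0.086 on log2(TPM + 1). ARNT for the knockdown in regular medium was −0.011 with no filter, −0.084 on log2(TPM + 1) and −0.086 without the high-7SL pair. On log2(TPM + 1) ARNT was also 0.60 for CSM in knockdown cells, 0.26 over both cells, 0.60 for the knockdown after CSM and 0.68 in the interaction, and over both cells 0.064 without the high-7SL pair. AHR for CSM in knockdown cells was 0.28 under the length offset and 0.27 on log2(TPM + 1), where it was 0.053 over both cells. LMCD1 for CSM in knockdown cells was 0.28 with 7SL as covariate, 0.48 on log2(TPM + 1) and 0.11 without the high-7SL pair. AHRR for CSM in control cells was 0.093 with the read-through reads.

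With each library left out in turn, CSM values in control cells ranged over −0.060 to 0.16 for ARNT, −0.26 to 0.17 for TIPARP and −0.29 to 0.79 for CYP1A2. In knockdown cells they ranged over −0.21 to 0.40 for TIPARP and −0.30 to 0.075 for LMCD1. Over both cells they ranged over −0.092 to 0.008 for ARNT, −0.018 to 0.27 for AHRR and −0.11 to 0.20 for TIPARP. Knockdown values ranged over −0.067 to 0.12 for ARNT and −0.53 to 0.093 for TIPARP in regular medium, and −0.25 to 0.058 for TIPARP after CSM. Interactions ranged over −0.29 to 0.61 for AHR and −0.21 to 0.40 for TIPARP.

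On log2(TPM + 1) the median of all genes moved by 0.59 for CSM in knockdown cells, 0.28 over both cells and 0.39 for the knockdown after CSM. For the knockdown after CSM, in regular medium and over both media, all calls numbered 1178, 389 and 1575 with no filter, 1462, 338 and 2016 in DESeq2, 128, 24 and 445 under the length offset, 59, 17 and 79 on log2(TPM + 1), 392, 133 and 1553 with 7SL as covariate, and 133, 18 and 429 without the high-7SL pair. With only the groups of a comparison fitted, 435 were called after CSM and 25 in regular medium. For CSM in knockdown cells, in control cells and over both, no filter called 175, 62 and 88 genes. For FASN knockdown against control after CSM, 166 of 282 called genes were higher in the knockdown with upper-quartile factors, against 97 of 264 with TMM. For the knockdown over both media, 503 of 839 were higher with upper-quartile factors, against 348 of 795 with TMM. Depth limits CYP1A1, CYP1B1 and ALDH3A1, whose counts of 0 to 27 per library leave counting error large. The floors given for CYP1A1 and ALDH3A1 cover counting error of the lower group only.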
